A study of Arabidopsis thaliana with 6 samples.

Results

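The jasmonate synthesis and VSP genes examined here are 8 Arabidopsis thaliana genes, chosen by locus identifier, out of 33314 genes in the tables. They are LOX2 (AT3G45140), AOS (AT5G42650), AOC1 (AT3G25760), AOC2 (AT3G25770), AOC3 (AT3G25780), OPR3 (AT2G06050), VSP1 (AT5G24780) and VSP2 (AT5G24770). Their transcripts were counted by direct RNA sequencing, in which a nanopore reads poly(A) RNA itself from its 3′ end, in fio1-1, fio1-5 and Col-0 whole seedlings taken after 14 days on MS medium in long days. The tables do not name the platform of a column, and the columns were read as the direct RNA libraries that the study describes. Of the 8 genes, 6 had at least 20 counts summed over the 3 libraries and 5 had at least 100.

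FIO1 encodes a METTL16-like m6A RNA methyltransferase. fio1-1 carries a chemically induced splice site mutation that removes a short stretch of the protein, and fio1-5 carries a small CRISPR deletion close to a splice site. Both lines and their wild type are Col-0, without jasmonate treatment or wounding in the labels, and each mutant is a single line with 1 library in the counts. The FIO1 transcript itself (AT2G21070) had 17 counts in fio1-1 and 30 in fio1-5, against 25 in Col-0, which does not check the labels, since neither lesion removes the gene. Without replicates no difference below has a test, and every interval is a 95% interval for counting error only.

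Jasmonates are lipid hormones made from linolenic acid. In the chloroplast a 13-lipoxygenase such as LOX2 oxygenates the fatty acid, allene oxide synthase (AOS) turns the product into an unstable epoxide, and an allene oxide cyclase (AOC1 to AOC4) closes the ring to give OPDA. In the peroxisome OPR3 reduces OPDA, beta-oxidation shortens the side chain to jasmonic acid, and JAR1 joins it to isoleucine to give the active hormone. COI1 perceives that conjugate and JAZ repressors are then degraded, which frees MYC transcription factors. LOX2, AOS, the AOC genes and OPR3 are themselves induced by jasmonate, and VSP1 and VSP2, vegetative storage proteins of the acid phosphatase family, are classical markers of the MYC branch of the response.

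Several of these genes are close copies of each other, which matters for any count. In the TAIR10.1 reference, AOC1 (chr3:9403779-9405338), AOC2 (chr3:9406669-9408071) and AOC3 (chr3:9409160-9411090) stand in a row on the + strand, with 1330 and 1088 bases between neighbours. VSP2 (chr5:8500468-8502224) and VSP1 (chr5:8507590-8509201) lie 5365 bases apart on the - strand. The coding sequences of AOC1 and AOC2 were 90.3% identical over 762 aligned bases, and those of VSP1 and VSP2 were 90.4% identical over 795. AOC4 (chr1:4547388-4548894), the family member that is not among the 8, was 74.9% identical to AOC2. No other annotated gene overlapped any of the 8 loci on either strand.

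The 3′ coding ends give an example of how closely these copies resemble each other. These are the last 30 coding bases of each gene, stop codon included, from the TAIR10.1 genome of RefSeq, with capitals for bases that differ from AOC2 in the AOC genes and from VSP2 in the VSP genes.
AOC1 (chr3:9405076-9405105, + strand): agTggagttGtaagCaactTtacAaaTtaG
AOC2 (chr3:9407810-9407839, + strand): agcggagttataagtaactataccaactaa
AOC3 (chr3:9410380-9410409, + strand): agTggagttataagtaactTtacTaaTtaa
AOC4 (chr1:4548523-4548552, + strand): GgcgCTACGatCGCtaactTtacTaaTtGa
VSP1 (chr5:8507783-8507812, - strand): ccaaatccactctactacgtaccttcttaa
VSP2 (chr5:8500713-8500742, - strand): ccaaatccactctactacgtaccttcttaa
AOC2 differed from AOC1 at 7 of these 30 bases, from AOC3 at 4 and from AOC4 at 13, whereas VSP1 and VSP2 were identical in them. The 3′ UTRs beyond these ends were not aligned on their own. Of all words of 21 bases in the longest transcript, 12.6% of those in AOC1, 9.69% in AOC2, 6.52% in AOC3, 14.0% in VSP1 and 12.2% in VSP2 also occurred in another gene. For LOX2, AOS and OPR3 that share was 0. How the authors assigned reads between near copies is not given in the sources used here, so the division of counts within the AOC1 to AOC3 row and within the VSP pair is uncertain.

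The levels of the 8 genes spanned a wide range, and corrected for length they kept nearly the same order in each library. Per transcript length, AOC2 stood highest in every library, at 35.1 TPM in fio1-1 and 53.7 TPM in fio1-5, against 116.7 TPM in Col-0 (TPM, a share of the library corrected for isoform length). AOS followed at 26.3, 34.0 and 66.5 TPM and AOC1 at 18.4, 17.7 and 32.9 TPM in the same libraries. In counts, which are not divided by length, AOS stood above AOC2 in fio1-1 (319 against 251) and fio1-5 (450 against 419). In Col-0 it stood below AOC2 (799 against 826). The counting intervals of AOS and AOC2 overlapped in fio1-5 and in Col-0. In Col-0 AOC2 stood above 94.1% of the 21223 genes with a TPM above 0, in fio1-5 above 89.6% of 21483 and in fio1-1 above 85.2% of 21457. OPR3 (8.57, 7.80 and 10.5 TPM) and AOC3 (6.45, 5.06 and 6.84 TPM) came next, and their counting intervals overlapped in all 3 libraries. VSP1, VSP2 and LOX2 were at the bottom, each below 2 TPM, and VSP1 and VSP2 changed places in Col-0 at counts that cannot order them.

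**Figure D1:**
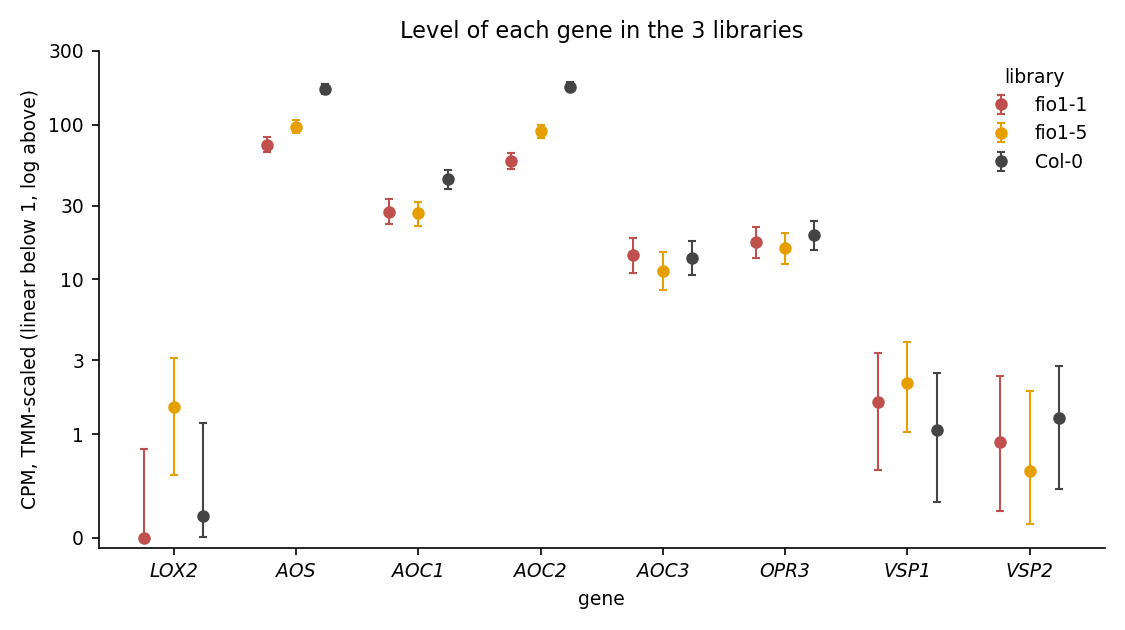
Level of each of the 8 genes in the fio1-1, fio1-5 and Col-0 libraries, as TMM-scaled CPM (counts relative to the library total) on an axis that is linear below 1 and logarithmic above. Bars are exact Poisson 95% intervals of the count. AOS and AOC2 stand lower in both mutants than in Col-0, while LOX2, VSP1 and VSP2 lie between 0 and 2.16 CPM.

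The middle of the synthesis pathway was lower in both fio1 libraries than in Col-0. The 8 genes together made up 194.3 CPM in fio1-1 and 245.7 CPM in fio1-5, against 426.0 CPM in Col-0, and AOS and AOC2 carried most of that difference. In fio1-1 these 2 genes fell at least 2-fold, the cutoff used throughout for a change. In fio1-5 both lay below Col-0 by less than 2-fold. For AOC3, OPR3 and both VSP genes the interval of the log2 ratio included 0 in each mutant. In whole seedlings fewer cells of a type and less RNA per cell cannot be told apart.

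AOS is a single-copy gene with 1 exon (chr5:17097564-17099595, - strand) and encodes the first enzyme committed to this branch. It had 319 counts in fio1-1 and 450 in fio1-5, against 799 in Col-0, or 74.1, 97.0 and 170.0 CPM. The Poisson intervals of the 3 counts, 285 to 356, 409 to 494 and 745 to 856, did not overlap. AOS was 2.29-fold lower in fio1-1 than in Col-0 (interval 2.01 to 2.62), a log2 ratio of -1.20. In fio1-5 it was 1.75-fold lower (1.56 to 1.97), a log2 ratio of -0.81.

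AOC2 showed the widest gap from Col-0 among the 6 genes with at least 20 counts. It had 251 counts in fio1-1 and 419 in fio1-5, against 826 in Col-0, or 58.3, 90.3 and 175.8 CPM. Again no 2 of the 3 counting intervals overlapped, and Col-0 was the highest library. In fio1-1 AOC2 fell 3.01-fold (2.61 to 3.48), a log2 ratio of -1.59. In fio1-5 it was 1.95-fold lower (1.73 to 2.19), a log2 ratio of -0.96 that crosses the 2-fold line with total-count scaling or on the deposited TPM (-1.11).

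AOC1, the left neighbour of AOC2, had 118 counts in fio1-1 and 124 in fio1-5, against 209 in Col-0. Both mutant libraries were below Col-0 and close to each other, at log2 ratios of -0.70 (interval -1.04 to -0.37) for fio1-1 and -0.73 (-1.07 to -0.41) for fio1-5. AOC3, the right neighbour, had 62, 53 and 65 counts in fio1-1, fio1-5 and Col-0. Its 3 counting intervals overlapped, with log2 ratios of 0.06 (-0.47 to 0.58) for fio1-1 and -0.27 (-0.83 to 0.27) for fio1-5. The adjacent copies thus spread over a range of 1.59 below Col-0 to 0.06 above it on the log2 scale in fio1-1. Summed over AOC1, AOC2 and AOC3, a quantity that does not depend on how reads were divided among them, the log2 ratio was -1.22 (-1.39 to -1.06) in fio1-1 and -0.87 (-1.01 to -0.72) in fio1-5.

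OPR3 carries out the peroxisomal step (chr2:2359114-2362375, - strand). Its 75 counts in fio1-1 and 74 in fio1-5, against 91 in Col-0, had overlapping intervals. The log2 ratio was -0.15 (-0.61 to 0.31) in fio1-1 and -0.28 (-0.74 to 0.18) in fio1-5, so that a 2-fold fall lay outside both intervals.

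LOX2, the chloroplast 13-lipoxygenase best known from wounded leaves (chr3:16525245-16529352, + strand), was nearly absent from the counts. It had 0 counts in fio1-1 and 7 in fio1-5, against 1 in Col-0. A count of 0 in fio1-1 allows up to 3 counts, or 0.697 CPM. The 7 counts in fio1-5 against 1 in Col-0 gave a ratio of 7.09 whose counting interval ran from 0.911 to 319.5. Against the 0 counts in fio1-1, the counting interval of the ratio for fio1-5 began at 1.34 and had no upper end. No fold is given for fio1-1 against Col-0, where both counts are within that floor.

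VSP1 and VSP2, the genes that report the jasmonate response downstream, were also near the limit of detection. VSP1 had 7 counts in fio1-1 and 10 in fio1-5, against 5 in Col-0, and VSP2 had 4, 3 and 6. Summed, the pair had 11 counts in fio1-1 and 13 in fio1-5, against 11 in Col-0. The log2 ratio of the sum was 0.12 (-1.22 to 1.47) for fio1-1 and 0.25 (-1.01 to 1.56) for fio1-5. A change of 2-fold in either direction was therefore not detectable at these counts.

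**Figure D2:**
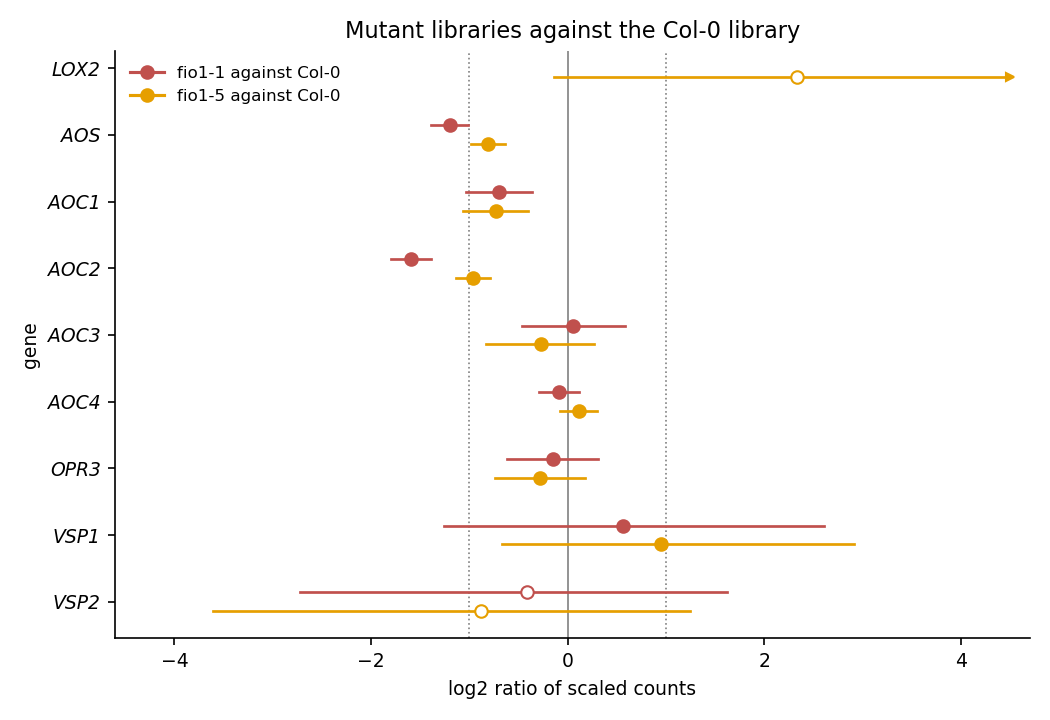
Log2 ratio of scaled counts, with 0.5 counts added, for fio1-1 against Col-0 and fio1-5 against Col-0, for the 8 genes and for AOC4. Lines are exact conditional binomial 95% intervals of the ratio without the addition, dotted lines mark 2-fold, open circles are genes with fewer than 20 counts, and an arrow marks an interval that runs past the axis. AOC2 and AOS in fio1-1 are the points whose whole interval lies past 2-fold, at log2 ratios of -1.59 and -1.20.

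The share of changed genes among the 8 was read against all genes. In fio1-1, 2 of the 6 genes with at least 20 counts were at least 2-fold lower than in Col-0, whereas 4.32% of the 16426 such genes were, and 0 of 6 were at least 2-fold higher, whereas 9.48% of all genes were. Among genes with at least 100 counts, 2 of 5 were lower and 0 of 5 higher in fio1-1, against 1.53% lower and 5.77% higher of 10718 genes. In fio1-5, 0 of 6 were 2-fold lower and 0 of 6 higher than in Col-0, against 4.34% lower and 7.36% higher over all genes. With at least 100 counts, 0 of 5 were lower and 0 of 5 higher in fio1-5, against 1.91% and 3.78% of all genes. The median log2 ratio of the 6 genes was -0.42 in fio1-1 and -0.51 in fio1-5, beside medians of -0.01 and 0.00 over all genes with at least 20 counts. The ratios of both mutants use the same Col-0 library, so they are not independent of each other, and the 8 genes were chosen with earlier results of these data known.

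**Figure D3:**
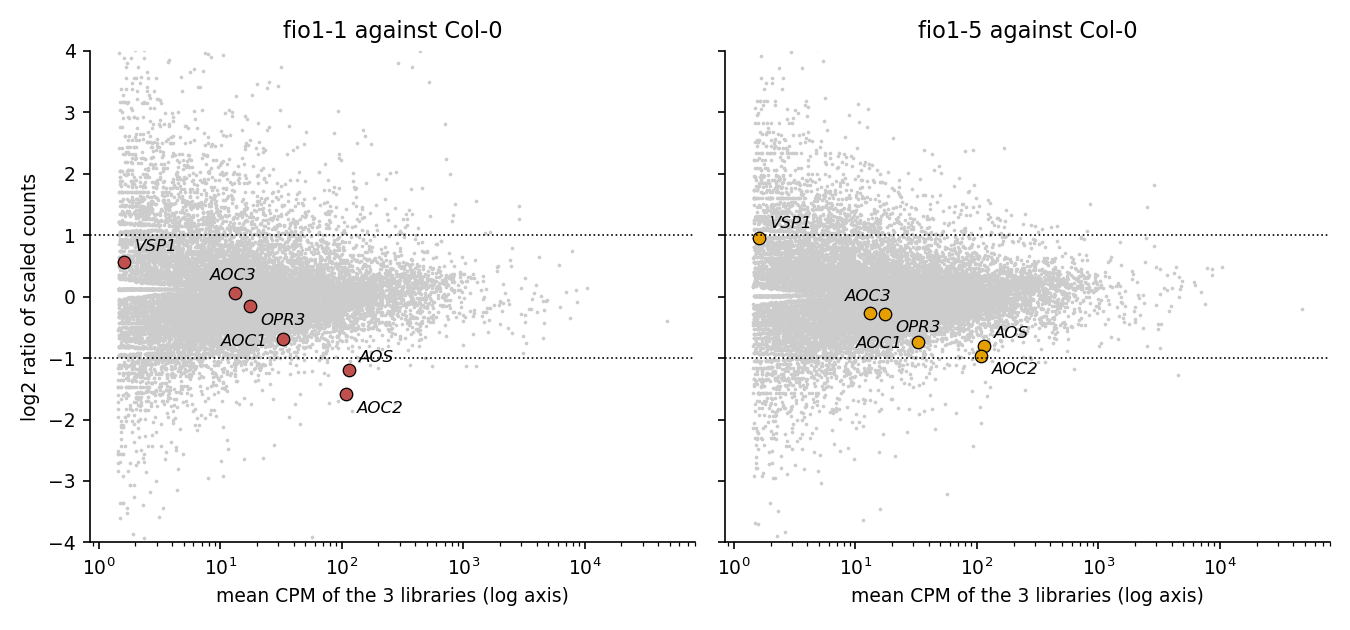
Log2 ratio against Col-0 (left panel fio1-1, right panel fio1-5) over the mean CPM of the 3 libraries on a log axis, for the 16426 genes with at least 20 counts in grey and the 6 of the 8 genes that pass this minimum in colour. Dotted lines mark 2-fold, and 49 genes in fio1-1 and 31 in fio1-5 lie beyond the axis limit of 4. In fio1-1 AOS and AOC2 sit below the lower dotted line at a mean level where few grey points do, and in fio1-5 they sit just above it.

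Between the alleles, fio1-5 lay closer to Col-0 than fio1-1 did for AOS and AOC2. AOC2 was 1.55-fold higher in fio1-5 than in fio1-1 (interval 1.32 to 1.82) and AOS 1.31-fold higher (1.13 to 1.51). For AOC1, AOC3, OPR3 and VSP1 the interval of this ratio included 1. None of the 6 genes was 2-fold higher or lower in fio1-5 than in fio1-1, against 3.24% higher and 4.97% lower over all genes. The median log2 ratio of the 6 genes in this comparison was 0.17, and it was -0.04 over the 5 genes with at least 100 counts.

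AOC4, the cyclase gene outside the tandem row, did not share the low counts of AOC2. It had 387 counts in fio1-1 and 480 in fio1-5, against 449 in Col-0, with log2 ratios of -0.09 (-0.29 to 0.11) in fio1-1 and 0.11 (-0.07 to 0.30) in fio1-5. AOC2 gave 30.7% of all AOC1 to AOC4 counts in fio1-1 (exact binomial interval 27.5 to 34.0) and 38.9% in fio1-5 (36.0 to 41.9), against 53.3% in Col-0 (50.8 to 55.8). The share of AOC4 was 47.3% (43.8 to 50.8) in fio1-1, 44.6% (41.6 to 47.6) in fio1-5 and 29.0% (26.7 to 31.3) in Col-0. The most counted cyclase gene was thus AOC4 in both mutant libraries and AOC2 in Col-0, although the intervals of the 2 shares touched in fio1-5. AOC1 stayed between 11.5% and 14.4% of the family. Summed over all 4 genes, the cyclase step had 818 counts in fio1-1 and 1076 in fio1-5, against 1549 in Col-0, log2 ratios of -0.79 (-0.92 to -0.67) and -0.51 (-0.62 to -0.39). These shares use counts that are not divided by transcript length. On the TPM scale, which divides by isoform length, AOC2 held 31.4% in fio1-1 and 39.6% in fio1-5, against 53.7% in Col-0.

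**Figure D4:**
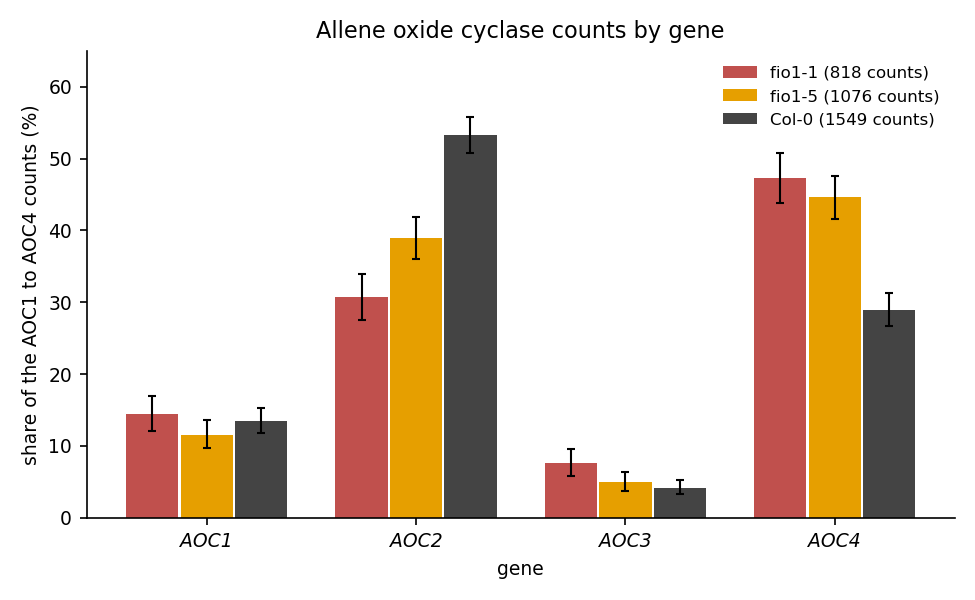
Share of the summed AOC1 to AOC4 counts given by each gene, as bars for fio1-1 (818 counts), fio1-5 (1076 counts) and Col-0 (1549 counts), with exact binomial 95% intervals. AOC2 gives 30.7%, 38.9% and 53.3% in these libraries and AOC4 gives 47.3%, 44.6% and 29.0%.

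Of the 8 genes, AOS, AOC1, AOC2 and AOC3 each had 1 isoform in the tables, so that their gene counts are those of the isoform. OPR3 had 2 isoforms with counts, which TAIR10.1 annotates with the same coding length of 1176 bases and which differ outside it. The first isoform, AT2G06050.1, gave 44.0% of OPR3 counts in fio1-1 (32.5 to 55.9) and 43.2% in fio1-5 (31.8 to 55.3), against 50.5% in Col-0 (39.9 to 61.2), with overlapping intervals. AT2G06050.3 had no count in any library. The VSP1 and VSP2 counts were split over 3 isoforms each, with 0 to 4 counts per isoform and library.

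The promoters were searched for the G-box CACGTG, the element that MYC factors bind and which reads the same on both strands. In the window of 250 bases before to 50 after the annotated start, 1 of the 8 genes held it, AOS, whereas 7.68% of 27443 protein-coding promoters of TAIR10.1 did. The AOS match began 6 bases before the annotated start and is shown in capitals within its surroundings.
AOS (chr5:17099586-17099611, - strand): agagtcaaagCACGTGgctaaatgaa
AOC2 had no such match in this window, and a relation between matches and counts was not tested. A match is a description of the letters and not a site of binding.

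Among the other synthesis genes few were 2-fold apart from Col-0. Of 22 further synthesis genes, 17 had at least 20 counts. In fio1-1, 1 of them was 2-fold lower and 0 were higher, against 4.32% lower and 9.48% higher over all genes with that minimum. In fio1-5, 0 were 2-fold lower or higher, against 4.34% lower and 7.36% higher over all genes. The median log2 ratio of the 17 genes was 0.05 in both mutants. Of the desaturase genes that make linolenic acid, FAD3 and FAD7 lay below Col-0 by less than 2-fold on counts. FAD3 had 57 counts in fio1-1 and 53 in fio1-5, against 94 in Col-0. Its log2 ratios were -0.59 (interval -1.10 to -0.10) and -0.80 (-1.32 to -0.31). On the deposited TPM FAD3 was past 2-fold lower in both mutants, at 5.90 and 5.04 TPM, against 12.8 in Col-0. FAD7 had 601, 771 and 878 counts (-0.42 and -0.17, with intervals that exclude 0). FAD8 had 34, 75 and 54 counts, at -0.53 (-1.20 to 0.11) in fio1-1 and 0.49 (-0.03 to 1.02) in fio1-5. FAD8 was 2.05-fold higher in fio1-5 than in fio1-1 (1.35 to 3.16). The gene 2-fold lower in fio1-1 was OPCL1, which activates the OPDA product for beta-oxidation, at 6 counts in fio1-1 and 12 in fio1-5, against 16 in Col-0, and its interval in fio1-1 (-2.93 to 0.14) included 0. The 13-lipoxygenases LOX2, LOX3, LOX4 and LOX6 together had 143 counts in fio1-1 and 146 in fio1-5, against 144 in Col-0, of which LOX6 gave 104, 103 and 112. The beta-oxidation genes ACX1 to ACX5, AIM1, MFP2 and KAT2 were all within 2-fold of Col-0 in both mutants, KAT2 with 1816 counts in fio1-1 and 1667 in fio1-5, against 1557 in Col-0. JAR1 had 20, 24 and 28 counts in the same libraries.

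Genes of other lipoxygenase branches and of jasmonate turnover moved in both directions. HPL1, a gene of the hydroperoxide lyase family, fell in both mutants. It had 9 counts in fio1-1 and 13 in fio1-5, against 28 in Col-0 (log2 ratios -1.46 and -1.06). LOX5, a 9-lipoxygenase outside the jasmonate route, had 10, 18 and 8 counts and passed 2-fold in fio1-5 at 1.14, with an interval (-0.08 to 2.60) that included 0. Of 8 jasmonate turnover genes with at least 20 counts, 3 rose and 1 fell in fio1-1, against 9.48% and 4.32% over all genes. In fio1-5, 2 rose and 1 fell, against 7.36% and 4.34% over all genes. The list medians were 0.48 and -0.06. JOX1, a jasmonic acid oxidase, had 28 counts in fio1-1 and 11 in fio1-5, against 5 in Col-0, and CYP94B3, which oxidises the active conjugate, had 41, 32 and 11. Their log2 ratios in fio1-1 were 2.49 (1.22 to 4.34) and 1.98 (1.04 to 3.13). JOX3, of the same oxidase family as JOX1, went the other way, with 5 counts in fio1-1 and 5 in fio1-5, against 18 in Col-0. CYP94C1, which acts after CYP94B3, rose in fio1-1 with 20 counts and had 6 in fio1-5, against 8 in Col-0. On the deposited TPM, HPL1 (-0.96), JOX1 (0.56) and LOX5 (0.57) in fio1-5 and CYP94C1 (0.90) and OPCL1 (-0.89) in fio1-1 were within 2-fold. ILL6, a turnover gene with 167 counts in fio1-1 and 158 in fio1-5, against 176 in Col-0, stood at 12.0 TPM in fio1-1 and 141.3 TPM in fio1-5, against 70.5 TPM in Col-0, so that 2 turnover genes were 2-fold higher and 2 lower in fio1-1 on TPM.

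Perception and signalling genes had a median log2 ratio of -0.29 in fio1-1 and -0.35 in fio1-5. The receptor gene COI1 had 108 counts in fio1-1 and 122 in fio1-5, against 167 in Col-0, and MYC3 had 181, 206 and 270, all within 2-fold. MYC2, the MYC factor best known for driving VSP genes, had 0 counts in fio1-1 and 1 in fio1-5, against 1 in Col-0. Of 7 such genes with at least 20 counts, 0 passed 2-fold in fio1-1, against 9.48% higher and 4.32% lower over all genes. In fio1-5, where 7.36% of all genes were higher and 4.34% lower, 1 fell and 0 rose. That gene was JAM1, a repressor of jasmonate responses, with 57 counts in fio1-1 and 54 in fio1-5, against 123 in Col-0 (log2 ratios -0.98 and -1.16), and in fio1-1 it passed 2-fold with total-count scaling (-1.02) and on TPM (-1.03). Of 12 JAZ genes, 5 had enough counts. In fio1-1, 1 fell and 1 rose, and in fio1-5 0 passed 2-fold, beside the same shares over all genes. JAZ2 fell in fio1-1, on 2 counts, within the floor of 3, against 12 in fio1-5 and 12 in Col-0 (interval -5.66 to -0.29). JAZ7 rose in fio1-1, with 18 counts, against 7 in fio1-5 and 7 in Col-0 (interval 0.16 to 2.99). The medians of the JAZ genes were -0.24 and 0.02. JAZ12, with 801 counts in fio1-1 and 812 in fio1-5, against 1030 in Col-0, stayed within 2-fold.

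Response genes were not uniform either. Of 10 genes of the MYC branch, 4 had at least 20 counts. Of these, 2 rose and 1 fell in fio1-1 and 1 fell in fio1-5, with medians of 0.24 and -0.26. Over all genes with that minimum, 9.48% were 2-fold higher and 4.32% lower in fio1-1, and 7.36% and 4.34% in fio1-5. ANAC019, a NAC transcription factor induced by jasmonate, had 17 counts in fio1-1 and 14 in fio1-5, against 45 in Col-0, whereas the related ANAC055 had 190, 57 and 86. JR1, a jasmonate-responsive lectin gene, had 274 counts in fio1-1 and 174 in fio1-5, against 127 in Col-0. In the ERF branch, which answers to ethylene as well, 3 of 8 genes had enough counts. Of these, 2 rose in fio1-1 and 1 in fio1-5, beside the same shares over all genes, with medians of 1.74 and 0.54. CHI-B, a basic chitinase, rose in both mutants with 682 counts in fio1-1 and 476 in fio1-5, against 159 in Col-0, log2 ratios of 2.22 (1.98 to 2.49) and 1.60 (1.34 to 1.87). PR4 had 2773, 1298 and 904 counts and passed 2-fold in fio1-1 (1.74, interval 1.64 to 1.85). The PDF1.2 defensin genes had 0 to 2 counts in every library. Of the relatives of the VSP genes, VSP3 had 331 counts in fio1-1 and 401 in fio1-5, against 331 in Col-0, and AT4G29270 had 612, 562 and 362, all within 2-fold.

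**Figure D5:**
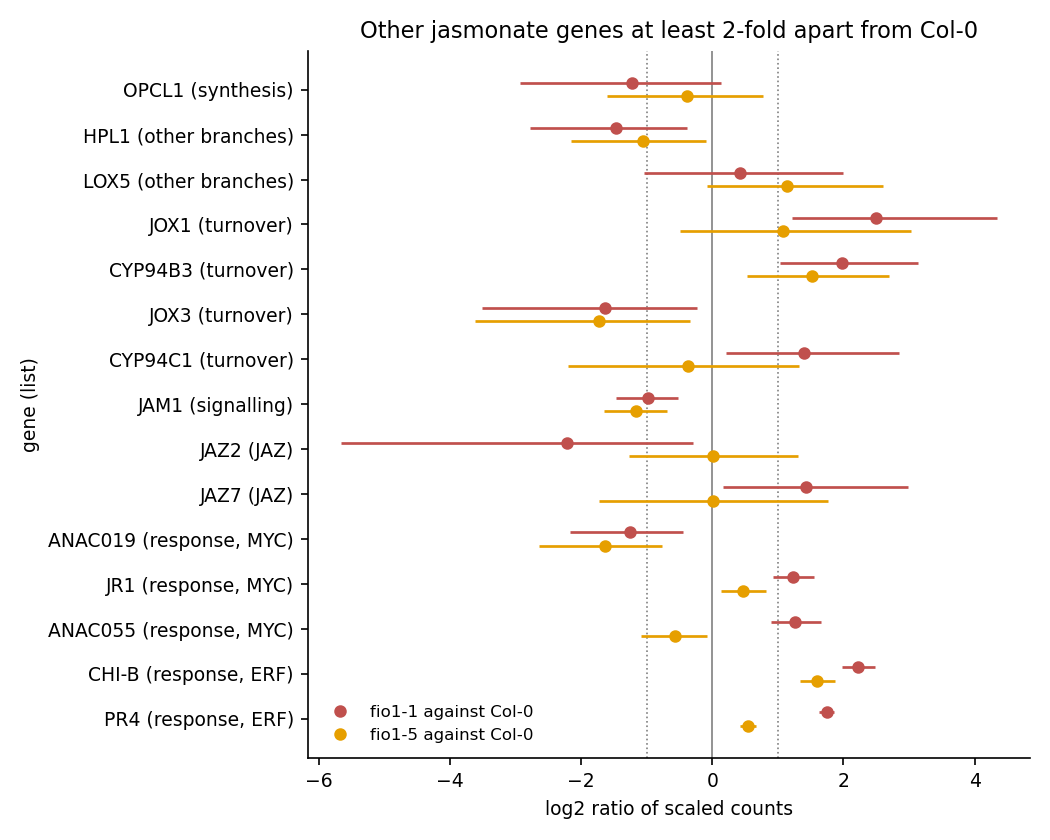
Log2 ratio of scaled counts, with 0.5 counts added, for the 15 other jasmonate and lipoxygenase genes with at least 20 counts that are at least 2-fold apart from Col-0 in either mutant, for fio1-1 and fio1-5. Lines are exact conditional binomial 95% intervals, dotted lines mark 2-fold, and the list of each gene stands in brackets. CHI-B is past 2-fold upward in both mutants at 2.22 and 1.60, while JOX3, ANAC019 and HPL1 lie below -1 in both.

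The genes most like AOS in pattern, by distance of centred log2(CPM + 0.5) over the 3 libraries among 10713 genes with at least 100 counts, were FTSH12 (49 counts in fio1-1 and 71 in fio1-5, against 128 in Col-0), AT1G04900 (25, 35 and 65) and AT3G63160 (3016, 4234 and 7246). Within a distance of 0.25 of AOS lay 123 genes. For VSP1 the nearest were MUB5, AT5G08570 and AT3G47540, and for VSP2 they were AT3G15070, MAPR4 and AT3G04860, but 546 and 1191 genes lay within 0.25, so that these low counts single out few. For LOX2, with 8 counts in all, no likeness is given.

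Some marker genes of tissue and harvest also differed between the libraries, and their part in the values above was not tested. The 3 libraries held 4351543 counts (fio1-1), 4682799 (fio1-5) and 4602836 (Col-0). The summed level of 5 root markers was 4451 CPM in fio1-1 and 2925 in fio1-5, against 1649.7 in Col-0, of which PYK10 alone gave 4288, 2737 and 1550.7 CPM. Of the 4 root markers with enough counts, 2 (PYK10 and COBL9) were 2-fold higher in fio1-1 and 1 (CASP1) in fio1-5. SHR, in contrast, had 35 counts in fio1-1 and 60 in fio1-5, against 63 in Col-0 (-0.71, interval -1.36 to -0.10, and -0.05). Over all genes with at least 20 counts, 9.48% were 2-fold higher and 4.32% lower in fio1-1, and 7.36% and 4.34% in fio1-5. The 5 leaf markers summed to 56659.6 CPM in fio1-1 and 67234 in fio1-5, against 68254.5 in Col-0, a sum that LHCB1.3 carried with 41340.8, 47086 and 54298 CPM. RBCS1A (0.13 and 0.48) and LHCB2.1 (0.78 and 1.46) were higher on the log2 scale in fio1-1 and fio1-5 than in Col-0, and 1 of 5 markers, LHCB2.1, passed 2-fold, in fio1-5. Among 7 flower markers SEP3 had 23 counts in fio1-1 and 29 in fio1-5, against 3 in Col-0, the others had 0 to 2, and AP1 and AG were at 0 in all. Of the touch genes, which respond to handling as jasmonate genes do, TCH4 had 587, 166 and 702 counts and TCH3 had 63, 13 and 60 in fio1-1, fio1-5 and Col-0, both 2-fold lower in fio1-5. Of 8 time-of-day genes, CCA1 and LHY, which peak at dawn, had 0 to 2 counts in each library. TOC1, which peaks at dusk, had 232 counts in fio1-1 and 248 in fio1-5, against 503 in Col-0. It passed 2-fold in fio1-5, and in fio1-1 with total-count scaling (-1.03) and on TPM (-1.10). The others with enough counts were within 2-fold and did not all move as TOC1 did. In fio1-1 and fio1-5, PRR5 stood at 0.41 and 0.68 (interval 0.27 to 1.10 in fio1-5), GI at 0.40 and -0.19, and ELF4 at -0.26 and -0.09. The medians of the 4 time-of-day genes with enough counts were 0.07 and -0.14. The senescence marker SAG12 was at 0 in all libraries, and 1 of 3 such markers had enough counts, SEN1, with 124, 104 and 72 counts.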

How the data were processed

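Each genotype has 1 library of seedlings harvested at 14 days. The authors called bases with Guppy and mapped Nanopore reads with minimap2 (2.17-r941 in the submitters' processing notes, which also list SAMtools 1.10). Per isoform, the authors deposited estimated counts, which are unscaled and need not be whole. They also deposited TPM, in which isoform length and library size are divided out. The tool behind these tables, its annotation, the genome build and the use of strand are not given in the sources used here. No column says whether it holds the Illumina or the Nanopore library of a genotype. Columns were taken as Nanopore, as the study describes this series. The labels state that the line first called fio1-2 is fio1-5. Deposited correlation coefficients were not used.

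Counts of 56591 isoforms were summed per gene and rounded. Libraries were scaled by TMM (edgeR 4.0.16, R 4.3.3), with factors of 0.989, 0.991 and 1.02 in fio1-1, fio1-5 and Col-0. Log2 ratios had 0.5 counts added, genes needed 20 counts over all libraries, and a change meant 2-fold. Intervals were exact Poisson, Clopper-Pearson or conditional binomial, and the floor was 3 counts. Other genes named are those of each list past 2-fold in either mutant, up to 4 by mean size, and further list members are given as examples chosen after their values were seen. The members and lists were chosen with earlier results of these data known. Coordinates, the coding sequences and promoters come from TAIR10.1 by locus identifier. Alternatives were total counts, DESeq2 1.42.0 size factors, TPM, 2 counts added, 1 isoform per gene, other minimum counts, a 4-fold cutoff and summed copies. The ratio procedure was tested on simulated data. Python 3.11.15, numpy 2.4.6, pandas 2.3.3, scipy 1.17.1, biopython 1.88 and matplotlib 3.10.9 were used.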

Additional observations from a re-analysis of the deposited data

Results flagged for a closer look

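In a few genes the log2 ratios against Col-0 had opposite signs in the alleles. None of these differences between the alleles was tested, since the counts hold 1 library per genotype. AOC3 had log2 ratios of 0.06 in fio1-1 and -0.27 in fio1-5, both with intervals that include 0. CYP94C1 stood at 1.39 in fio1-1 and -0.37 in fio1-5, with an interval in fio1-5 that includes 0, and ANAC055 at 1.27 in fio1-1 and -0.57 in fio1-5. JAZ2 stood at -2.21 in fio1-1, on 2 counts, and at 0.02 in fio1-5, where it had 12 counts, as in Col-0, and an interval that includes 0. The touch gene TCH3 stood at 0.20 in fio1-1, with an interval that includes 0, and -2.15 in fio1-5.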

How the results depend on the processing

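No library could be left out, as the counts hold 1 per genotype. No paired analysis was possible because the columns carry no replicate number. Of 42 alternative values for the counts of changed members and their medians, 37 stayed close to the value given. Close meant within 1.5 times for a count and within the mean counting interval of the middle genes for a median. That rule is wide. With at least 100 counts it took in a median of -0.70 instead of -0.42 in fio1-1. For fio1-5 against fio1-1 it took in -0.04 instead of 0.17. In fio1-1, AOS and AOC2 stayed past 2-fold under every alternative of scaling and added count, and 0 of the 6 genes passed a 4-fold cutoff. The alternative of 1 isoform per gene could not change AOS or AOC2, which have 1 isoform each. In fio1-5, 1 gene instead of 0 passed 2-fold with total-count scaling or on TPM, which is AOC2, and 1 without a minimum count, which is LOX2 with 7 counts against 1. Without a minimum count LOX2 also passed for fio1-5 against fio1-1, which makes 1 gene, and for fio1-1 against Col-0, which makes 3, there on 0 counts against 1. Of 130 alternative values for single genes, 123 lay within the counting interval, and the other 7 came from summing AOC1, AOC2 and AOC3. For AOS, AOC1, AOC2 and AOC3 the values from 1 isoform per gene repeat the main ones. On TPM the median of all genes shifted to -0.14 in fio1-1 and -0.15 in fio1-5. HPL1 (-0.96), JOX1 (0.56), LOX5 (0.57) and CASP1 (0.88) in fio1-5 no longer passed 2-fold. The same held for CYP94C1 (0.90), OPCL1 (-0.89) and COBL9 (0.71) in fio1-1. JAM1 (-1.03), TOC1 (-1.10), ILL6 and FAD3 in fio1-1 passed 2-fold newly. In fio1-5, 2 of the 17 further synthesis genes instead of 0 were 2-fold lower, FAD3 and LOX6. JAZ2 and JAZ7 in fio1-5 turned from 0.02 to -0.11. The cause of these shifts was not tested.

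Genes at least 2-fold apart from Col-0 numbered 2267 in fio1-1 (1557 higher, 710 lower) and 1922 in fio1-5 (1209 higher, 713 lower), and 1350 separated fio1-5 from fio1-1 (533 higher, 817 lower). Without a minimum count these were 6103, 5636 and 4940, and with at least 100 counts 782, 610 and 350. On TPM they were 1516 (953 higher, 563 lower), 1234 (636 higher, 598 lower) and 801 (236 higher, 565 lower). The other alternatives gave counts within 1.5 times. The share of AOC2 on TPM was added after the data were seen. The low counts limit LOX2, VSP1 and VSP2 most, since a floor of 3 counts equals 0.697 CPM in fio1-1, 0.647 CPM in fio1-5 and 0.638 CPM in Col-0. Why these genes had so few counts was not tested.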

Other observations

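Several genes known as abundant or inducible in leaves had few counts in all 3 libraries. RCA, the activase of Rubisco, had 107 counts in fio1-1 and 147 in fio1-5, against 137 in Col-0, whereas the antenna gene LHCB1.3 had 177860, 218453 and 255151. LOX2 and MYC2 had at most 7 counts in any library. LOX6 had nearly level counts (104 in fio1-1 and 103 in fio1-5, against 112 in Col-0), but its TPM was 23.7, 4.47 and 11.7 in those libraries, so that the 13-lipoxygenase step reads as level on counts and as uneven on TPM. THI2.1, a thionin gene placed here in the ERF list as a pathogen response gene, is below the minimum of 20 counts. It had 1 count in fio1-1 and 0 in fio1-5, against 13 in Col-0.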
